A study of Mus musculus with 7 samples.

Results

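The metallothionein genes Mt1 and Mt2 and the regulator gene Mtf1 were followed across all 7 libraries of the series, 3 genes of the 55367 gene symbols in the deposited tables. They were taken by symbol, with earlier results of these data known. The cells are G1E-ER4, a mouse erythroid progenitor line without functional endogenous GATA1. A fusion protein of GATA1 and estrogen receptor is present in its place, and β-estradiol activates it and so triggers erythroid differentiation. The line is a single cultured line, and the labels do not say whether replicates came from separate thaws or days, so the p-values measure the spread between these cultures. All groups share this fusion and a medium with serum, erythropoietin and Kit ligand. There was 1 library of undifferentiated cells at 0 h with no zinc intervention. There were 3 libraries of cells differentiated for 24 h with 100 nM β-estradiol (control), and 3 libraries differentiated in the same way with 50 µM DTPA, a chelator of zinc and other metals, added at the start. The 0 h library has no replicate.

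Metallothioneins are small, cysteine-rich proteins of the cytosol and nucleus that hold zinc and copper ions in thiolate clusters. Mt1 and Mt2 are made in most tissues, while Mt3 is known from brain and Mt4 from stratified epithelium. MTF1, the product of Mtf1, is a zinc finger transcription factor that senses free zinc, enters the nucleus and binds metal response elements (MREs) in the promoters of Mt1, Mt2 and the zinc exporter gene Slc30a1, and it is known to repress the importer gene Slc39a10.

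The values are TPM, reads per gene divided by the gene's exon length and scaled to the same total in every library. Estimated depth was 17.59 M reads at 0 h, 17.68 to 18.6 M in control libraries and 19.79 to 21.19 M in DTPA libraries. All 11 erythroid markers checked were above 1 TPM in every library, with a sum of 13240 TPM at 0 h, 55300 to 59410 TPM in the controls and 64199 to 82308 TPM under DTPA. Most of that sum is globin message, and single markers went both ways: 6 of the 11 were called lower under DTPA than in the controls, among them Gata1 (mean 3164 to 1305 TPM) and Slc4a1 (770 to 73 TPM), and 3 higher, Hbb-bs, Hbb-bt and Alas2. These are 54.5% and 27.3%, against 36.4% called lower and 21.7% called higher of all tested genes. The Gata1 value cannot tell message of the fusion from message of the endogenous gene. The part of these markers in the results was not tested. The summed level was at most 7.16 TPM for 8 myeloid markers, at most 2.82 TPM for 5 lymphoid markers and at most 0.16 TPM for 4 fibroblast markers, with Mpo, Lyz2, Cd3e and Col1a1 at 0 in all 7 libraries. The myeloid marker Cd68 averaged 2.78 TPM in the controls and 1.66 TPM under DTPA. For the lymphoid marker Cd79a these means were 0.547 and 2.65 TPM. The summed level of 6 megakaryocyte markers was 39.5 TPM at 0 h, 9.08 to 12.7 TPM in the controls and 42.4 to 51.5 TPM under DTPA, most of it from Gp1ba and Itgb3 with Ppbp at 0 throughout, and the part of this in the results was not tested.

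Mt2 and Mt1 lie side by side on chromosome 8 (GRCm38, the assembly also called mm10), both on the plus strand. Mt2 (ENSMUSG00000031762.7) spans bases 94172664 to 94173568 and Mt1 (ENSMUSG00000031765.8) bases 94179082 to 94180327, with 5513 bases between them. Mtf1 (ENSMUSG00000028890.13) lies on chromosome 4 from 124802104 to 124849800, also on the plus strand. The core of an MRE is TGCACNC or TGCGCNC, read on either strand, where it appears as GNGTGCA or GNGCGCA on the opposite one. Upstream sequence of the pair is shown because the number and place of these cores differ between the genes. It comes from RefSeq (GRCm38.p6), plus strand, and stops before the first annotated transcript base. Capitals mark MRE cores, with overlapping matches counted as 1. The Mt1 stretch is chr8:94178839-94179081 (243 bases, 1 core), and the Mt2 stretch is chr8:94172368-94172617 (250 bases, 3 cores).
Mt1 upstream: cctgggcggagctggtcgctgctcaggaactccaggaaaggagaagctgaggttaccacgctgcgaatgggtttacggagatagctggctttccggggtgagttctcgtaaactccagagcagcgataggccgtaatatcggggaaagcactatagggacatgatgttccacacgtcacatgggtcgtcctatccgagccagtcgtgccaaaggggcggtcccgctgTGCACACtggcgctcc
Mt2 upstream: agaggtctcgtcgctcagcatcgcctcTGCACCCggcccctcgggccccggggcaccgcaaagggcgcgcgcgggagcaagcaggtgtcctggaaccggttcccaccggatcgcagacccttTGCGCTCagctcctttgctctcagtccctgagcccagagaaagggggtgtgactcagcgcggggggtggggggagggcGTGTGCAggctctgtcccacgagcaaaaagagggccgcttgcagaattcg

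More cores lay between these stretches and the coding start, in sequence that GENCODE M21 counts as exon 1 of the longest-reaching transcripts. With that part included, 472 bases before the coding start of Mt1 held 5 cores, 4 of them in annotated exon 1, and 480 bases before that of Mt2 held 7, of which 3 were in exon 1 and 1 between the RefSeq and the GENCODE start. The 2 other transcripts of Mt1, Mt1-203 and Mt1-202, start at 94179211 and 94179241, after all 5 cores, and the other transcript of Mt2, Mt2-202, starts at 94172860, after all 7. The cores past the upstream stretches are given with 6 flanking bases on each side, 5′ to 3′ on the plus strand, named by the number of bases between the core and the coding start.
Mt1 core at 213: gagctcTGCACTCcgcccg
Mt1 core at 195: gaaaagTGCGCTCggctct
Mt1 core at 131: cctgctGGGTGCAaaccct
Mt1 core at 117: acccttTGCGCCCggactc
Mt2 core at 219: cgggtcGTGCGCAggccca
Mt2 core at 165: aagggcGTGTGCAggcggc
Mt2 core at 146: gggggcGCGTGCAtggtgc
Mt2 core at 112: agctttTGCGCTCgaccca

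**Figure D1:**
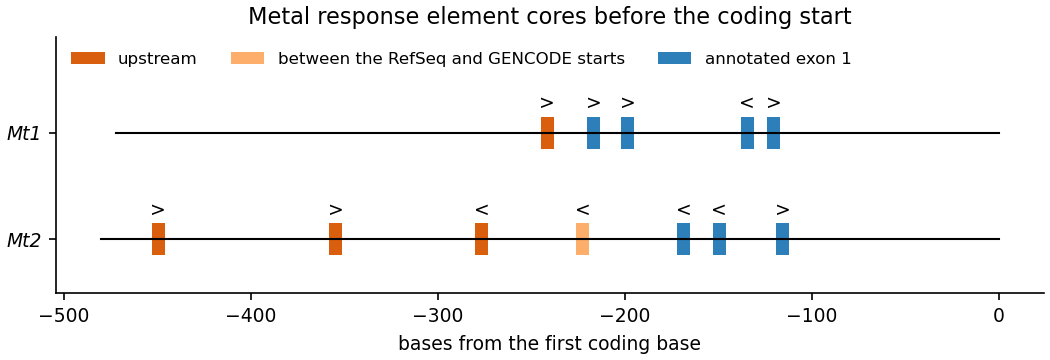
Position of MRE cores in the sequence before the coding start of Mt1 (472 bases searched) and Mt2 (480 bases). The x axis is the distance in bases from the first coding base, bars are the 7-base cores, arrowheads give the strand of the core and colours the annotation; the 5 cores of Mt1 lie between 117 and 238 bases from the coding start and the 7 of Mt2 spread from 112 to 446.

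Over promoter windows of 300 bases (250 before to 50 after each RefSeq start), Mt1 held 3 cores and Mt2 held 4. Among all 32851 such windows, 25.7% held at least 1 core, 1.31% at least 3 and 0.295% at least 4. The window of the exporter gene Slc30a1 held 2 cores, and those of Mt3 and Mt4 held 1 each. No core was found in the window of Mtf1 or in the 2 windows of Slc39a10, which says only that these letters are not in those windows. These windows do not cover the GENCODE starts of the genes, 124802104 for Mtf1 and 46892852 for Slc39a10 (minus strand). A GC box, GGGCGG on either strand, the site bound by SP1, was matched 3 times in the Mt1 window, not in the Mt2 window, and in 35.7% of all windows. A match is a string of letters and was not measured as a bound site.

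The coding sequences of Mt1 and Mt2 are shown because the values depend on telling reads of the 2 genes apart. They are taken from the GENCODE M21 transcripts Mt1-201 and Mt2-201 (GRCm38), without the stop codon, and capitals mark bases that differ between the genes.
Mt1 coding: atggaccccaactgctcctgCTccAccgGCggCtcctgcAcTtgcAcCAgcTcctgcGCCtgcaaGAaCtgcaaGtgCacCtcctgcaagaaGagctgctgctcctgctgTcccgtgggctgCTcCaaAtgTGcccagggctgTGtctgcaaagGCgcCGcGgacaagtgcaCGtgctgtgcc
Mt2 coding: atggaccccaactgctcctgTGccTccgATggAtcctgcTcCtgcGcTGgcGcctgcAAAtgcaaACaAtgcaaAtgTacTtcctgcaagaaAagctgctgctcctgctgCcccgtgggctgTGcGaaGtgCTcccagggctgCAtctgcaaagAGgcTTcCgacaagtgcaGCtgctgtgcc
They differ at 38 of 183 bases (79.2% identity). The longest run shared by the whole transcripts was 20 bases.

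Both metallothionein transcripts were abundant before differentiation. Mt2 stood at 2018 TPM at 0 h, rank 51 among all symbols of that library, and Mt1 at 1305 TPM, rank 88. Mtf1 was a low to moderate transcript at 12.4 TPM. These 0 h values rest on 7013, 9607 and 655 recovered reads, but on a single library, so they have no replicate error of their own.

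After 24 h of differentiation under control zinc, Mt1, Mt2 and Mtf1 were all higher than in the 0 h library. Mt1 was at 2549, 2686 and 2160 TPM in the 3 controls, and Mt2 at 2769, 2897 and 2592 TPM. Mtf1 was at 27.7, 28.9 and 26.8 TPM. Every control library lay above the 0 h library for each of the 3 genes, an order whose share over all genes was not counted. The log2 fold changes of log2(TPM + 1) were 0.91 ± 0.127 for Mt1 (SE, limma adjusted p = 9.78e-04), 0.45 ± 0.0938 for Mt2 (adjusted p = 0.0059) and 1.10 ± 0.0883 for Mtf1 (adjusted p = 8.32e-05).

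With the single 0 h library assumed to vary like the others, a call in this comparison needs an adjusted p under 0.05 and a log2 fold change of at least 1 in size. Mtf1 passed this rule and rose, 2.23-fold in mean TPM. Mt1 and Mt2 passed only the p threshold. Of the 11906 genes tested, 39.4% passed both, 15.1% upward and 24.3% downward, and 74.4% passed the p threshold alone, 30.9% upward and 43.6% downward. Mt1 passed both under median-of-ratios scaling (1.07), under quantile normalization (1.03) and without control replicate 3 (1.00), and Mtf1 missed the minimum fold with a pseudocount of 5 (0.91). The median log2 fold change of all tested genes was -0.22, and -0.07 and -0.03 under median-of-ratios scaling and quantile normalization.

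DTPA brought Mt2 to a small remnant. The 3 DTPA libraries held 11.96, 13.73 and 12.07 TPM, against 2592 to 2897 TPM in the controls. These values are 49, 55 and 51 reads, with exact Poisson 95% intervals of 36.3 to 64.8, 41.4 to 71.6 and 38 to 67.1, where the controls had 9896, 9935 and 8908 reads. The means were 2752 ± 153 TPM (SD, n = 3) and 12.6 ± 0.992 TPM (SD, n = 3), a 219-fold difference, and the rank of Mt2 among all symbols went from 26 to 27 in the controls to 6260 to 6661 under DTPA. In the limma fit its log2 fold change, -7.66 ± 0.0642 (SE; adjusted p = 2.27e-09), was the lowest of the 11147 tested genes.

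Mt1 also fell under DTPA but kept a clear signal. It was at 183.7, 203.3 and 198.2 TPM in the DTPA libraries, on 1595, 1725 and 1774 reads, and its rank went from 32 to 34 in the controls to 690 to 765. The means were 2465 ± 273 and 195 ± 10.2 TPM (SD, n = 3 each), a 12.6-fold difference. The log2 fold change was -3.65 ± 0.0829 (SE, limma adjusted p = 1.01e-07), the third lowest of all tested genes after Mt2 and Hemgn. In these bulk libraries fewer cells with a transcript and less transcript per cell cannot be told apart.

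Mtf1 changed far less than either metallothionein gene. The DTPA libraries held 19.3, 18 and 20.7 TPM, all below the lowest control at 26.8 TPM and all above the 12.4 TPM of the 0 h library. The means were 27.8 ± 1.02 and 19.3 ± 1.33 TPM (SD, n = 3 each), so that Mtf1 under DTPA stood at 69.6% of the control level. The log2 fold change was -0.50 ± 0.0643 (SE, limma adjusted p = 3.63e-04), with 2057 tested genes lower than it.

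DTPA and control libraries did not overlap for any of the 3 genes, as for 65% of all tested genes, 40.3% with DTPA lower and 24.7% with DTPA higher. All 3 were called lower in a comparison in which 58.1% of the tested genes were called and 36.4% were called lower (21.7% higher), so that the call alone does not set Mtf1 apart from other genes, while the size of the change puts Mt2 and Mt1 at the bottom of the list. The median log2 fold change of all tested genes was -0.09. The exact two-sided permutation test gave p = 0.1 for each of Mt1, Mt2 and Mtf1, the smallest value that 3 against 3 libraries allow.

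**Figure D2:**
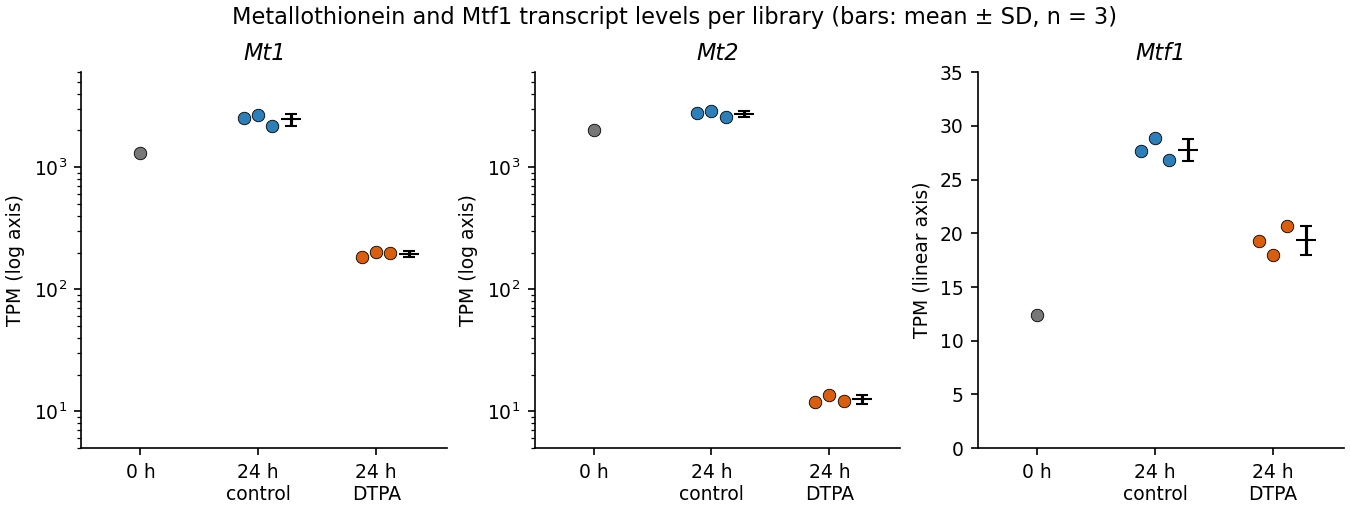
TPM of Mt1, Mt2 (log axes) and Mtf1 (linear axis) in each library at 0 h (1 library), in the 24 h controls and under DTPA (3 each). Points are libraries and bars the mean ± SD; Mt2 sits between 11.96 and 13.73 TPM and Mt1 between 183.7 and 203.3 TPM under DTPA, both below the 0 h point, while Mtf1 under DTPA lies between the 0 h point and the controls.

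Set against the 0 h library, the metallothionein genes and their regulator stood on opposite sides under DTPA. Mt2 and Mt1 were at 0.624% and 14.9% of their 0 h level, with log2 fold changes of -7.22 ± 0.0937 (SE, limma adjusted p = 1.95e-07) and -2.74 ± 0.127 (adjusted p = 7.13e-06), and both were called lower. Of 12016 tested genes 43.3% were called, 27.6% lower and 15.7% higher. Mtf1 was at 155% of its 0 h level, with a log2 fold change of 0.60 ± 0.0883 (adjusted p = 0.00119), short of the minimum fold, where 76.5% of genes passed the p threshold alone, 29.9% upward and 46.6% downward. It passed that minimum under quantile normalization (1.02). Its mean had moved 45% of the way from the 0 h level to the control level. This comparison shares the 0 h library with the one of control against 0 h, and the DTPA libraries with the one of DTPA against control.

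The 2 metallothionein genes did not keep their proportion. The ratio of Mt1 to Mt2 in deposited TPM was 0.646 at 0 h, with a 95% interval of 0.627 to 0.667 from exact binomial limits on the reads. In the controls it was 0.921, 0.927 and 0.833, and under DTPA 15.4, 14.8 and 16.4. Every control library lay above the 0 h library, and every DTPA library far above every control.

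The counting intervals of the DTPA ratios ran from 11.6 to 20.9, from 11.3 to 19.7 and from 12.4 to 22.1. The difference between the DTPA libraries lies inside them, so that at 49 to 55 reads of Mt2 the ratio was not distinguishable among the 3. All intervals cover counting error only. Within the controls, the interval of replicate 3 (0.812 to 0.855) ended below the lower limits of replicates 1 (0.899) and 2 (0.905). The control ratios averaged 0.894 ± 0.0523 and the DTPA ratios 15.5 ± 0.82 (SD, n = 3 each). On the log2 scale the ratio was 4.12 ± 0.0661 higher under DTPA (SE), a 17.4-fold shift, with p = 0.1 in the exact two-sided permutation test, the smallest that this design allows.

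On the deposited scale the pair together held 0.332% of all TPM at 0 h, 0.475% to 0.558% in the controls and 0.0196% to 0.0217% under DTPA.

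Which of the 2 genes is the more abundant depended on the length used. GENCODE M21 lists a single-exon transcript of Mt1, Mt1-202, that runs through both introns of the 3-exon form, so that the exons of the gene together cover its whole 1246 bases. The deposited Mt1 values gave whole reads in all 7 libraries with this length, within 0.0481 of a read, the best fit of 1801 lengths tried. The next best length reached 0.178, and the 549 bases of the 3-exon transcript Mt1-201 reached 0.369. For Mt2 the best fit was likewise the 588 bases of all its exons, against 511 for the 3-exon transcript Mt2-201. On the 3-exon lengths the ratio of Mt1 to Mt2 was 1.28 at 0 h, 1.76 ± 0.103 in the controls and 30.6 ± 1.62 under DTPA (SD, n = 3 each), and in reads with no length it was 1.37, 1.89 ± 0.111 and 32.9 ± 1.74. The ratio is below 1 at 0 h and in the controls on the deposited scale and above 1 on either of the others. A length that is the same in every library multiplies all 7 alike, so the 17.4-fold shift under DTPA does not depend on which is chosen. It would depend on length if the mix of transcripts differed between conditions. Which of the transcripts the cells made was not measured.

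**Figure D3:**
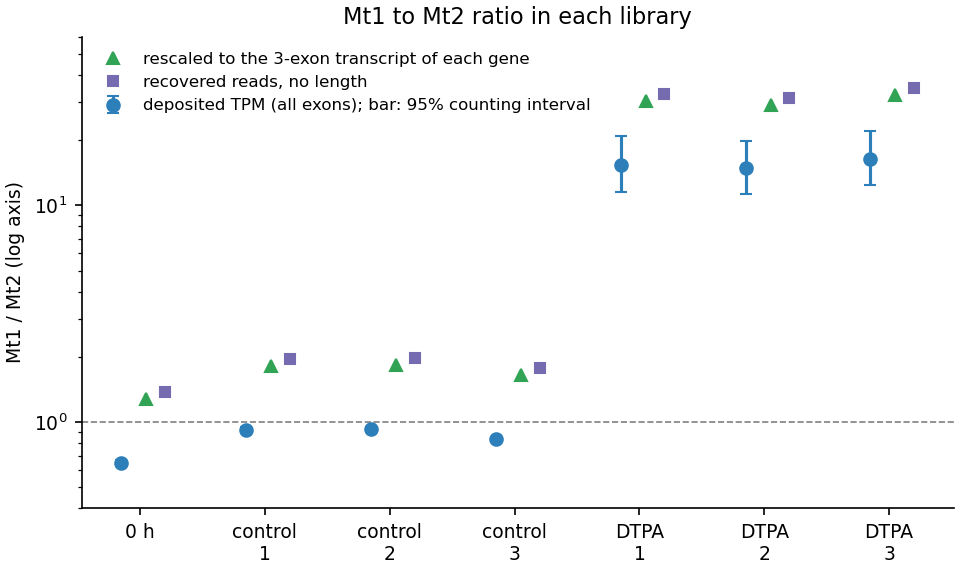
Ratio of Mt1 to Mt2 in each library (log axis) on the deposited TPM with 95% counting intervals, rescaled to the 3-exon transcript of each gene, and as recovered reads. The dashed line marks equal values; the 3 DTPA libraries lie at 14.8 to 16.4 on the deposited scale, above all others on every scale, and the 0 h library is the lowest.

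Overlapping genes could move reads in or out of these values. On the other strand, the antisense gene Gm45774 covers 432 bases, 73.5%, of the exons of Mt2, and it was at 0 to 0.26 TPM, at most 4 reads, in every library. At the 3′ end of Mtf1, 721 bases, 8.09% of its exons, are shared with 1110065P20Rik on the other strand. That gene was at 18.7 TPM at 0 h, 12.2 ± 1.3 TPM in the controls and 13.2 ± 0.33 TPM under DTPA (SD, n = 3 each), a log2 fold change of 0.12 (limma adjusted p = 0.27) against the -0.50 of Mtf1. The library kit keeps the strand, but no strand setting of the counting was given in the sources used here. If strand was ignored, reads in shared bases could have been left out of both genes. The low value of Gm45774 therefore cannot show that Mt2 kept all its reads. The level of Mt2 and its ratio to Mt1 could be affected, which was not tested.

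Other metallothionein genes were not detected at 24 h. Mt4 was listed at 0 in all 7 libraries and Mt3 in all 6 libraries of 24 h, with 1 read (0.16 TPM) at 0 h. A count of 0 allows up to 3 reads, which is 0.392 to 0.483 TPM for Mt3 and 1.05 to 1.29 TPM for Mt4. Both genes lie on the same side of Mt2, with the end of Mt3 18517 bases from its start.

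Genes around the pair were called about as often as genes in general. Of 22 other annotated genes within 250 kb of Mt1, 9 were at 0 in every library and 8 were abundant enough to be tested. Among these 8, 2 were higher and 3 lower under DTPA, 25% and 37.5% against 21.7% and 36.4% of all tested genes, with a median log2 fold change of -0.07 against -0.09 for all tested genes. The nearest tested genes on either side were Nup93, which encodes a nuclear pore protein, and Bbs2, a gene of the ciliary BBSome, with starts at 35.5 kb and -80.2 kb from that of Mt1. Nup93 fell from 32.2 ± 1.18 to 13.4 ± 0.7 TPM (limma adjusted p = 2.74e-06) and Bbs2 rose from 4.35 ± 0.392 to 7.12 ± 0.482 TPM (adjusted p = 0.00113; SD, n = 3 each). The log2 fold change of Bbs2 was 0.60, and 0.37 with a pseudocount of 5. Herpud1, a gene of endoplasmic reticulum stress, rose by 0.32 on the log2 scale, while Nudt21, a gene of mRNA 3′ end processing, fell by 0.35. The log2 fold changes of Ogfod1, a ribosomal hydroxylase gene, and of the pseudogenes Rpl10-ps5 and Ap3s1-ps2 were 0.19, 0.17 and -0.44, none past the threshold. That of Ogfod1 was 0.34 and past it without DTPA replicate 1, and that of Rpl10-ps5 was 0.55 and past it without control replicate 3 but -0.047 without control replicate 2 and -0.0032 without control replicate 1.

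**Figure D4:**
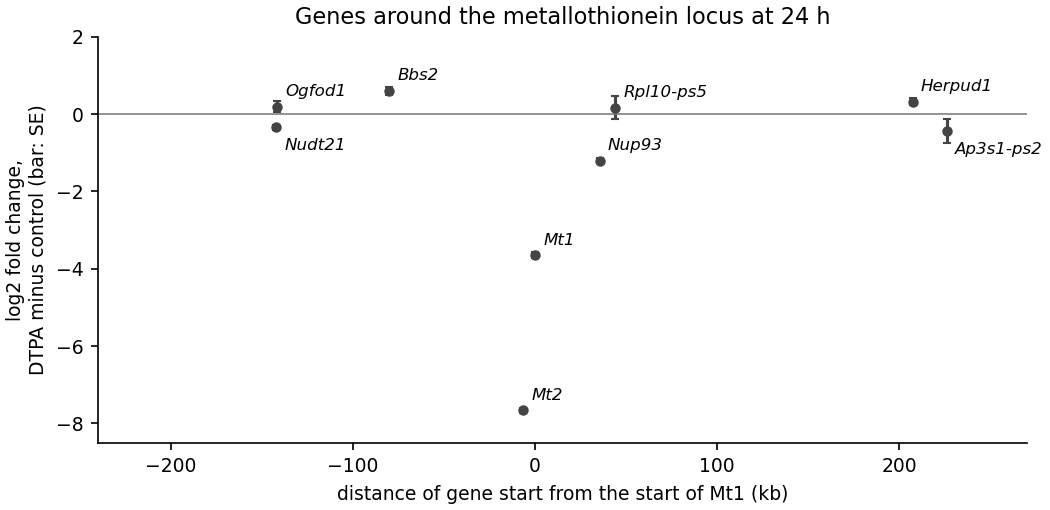
Log2 fold change of DTPA minus control at 24 h (y axis, bars SE) for Mt1, Mt2 and 7 of the 8 tested genes within 250 kb, against the distance of each gene's start from the start of Mt1 in kb. Mt2 at -7.66 and Mt1 at -3.65 stand below the 7 neighbours plotted, which lie between -1.21 and 0.60.

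Around Mtf1 on chromosome 4, 14 of 29 annotated genes within 250 kb were tested, of which 1 was higher and 5 lower under DTPA. These are 7.14% and 35.7%, against 21.7% and 36.4% of all tested genes, and the median was -0.23 against -0.09. The number lower was 3 and the number higher 2 under median-of-ratios scaling or quantile normalization. The largest fall was that of Cdca8, a subunit gene of the mitotic chromosomal passenger complex (-1.75), followed by Fhl3, a LIM-domain protein gene (-1.07, and -1.41 or -0.53 with a pseudocount of 0.1 or 5), and the splicing factor gene Sf3a3 (-0.62), and the gene that rose was 9930104L06Rik (0.43).

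Other genes known as MTF1 targets went both ways. Of 11 on the list, 7 were tested, and 4 were higher and 3 lower under DTPA, with a median log2 fold change of 0.22, against 21.7% higher, 36.4% lower and a median of -0.09 over all tested genes. Slc39a10, which MTF1 is known to repress, is among the 4 higher, and these counts and the median pool it with the other targets. Slc30a1, the zinc exporter of the plasma membrane and a classic MTF1 target, was at 14.4 TPM at 0 h. The 3 controls held 29.2, 30.7 and 27.9 TPM of it, and the DTPA libraries 42.7, 40.4 and 44.7 TPM. All DTPA libraries lay above all controls, as for 24.7% of all tested genes. The limma log2 fold change was 0.53 ± 0.0578 (SE; adjusted p = 1.62e-04), opposite in sign to Mt1 and Mt2.

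Slc39a10, the importer that MTF1 is known to repress, was at 37.3 TPM at 0 h. Control libraries held 1.24, 1.21 and 1.04 TPM of it, and DTPA libraries 15.1, 15.5 and 15.9 TPM. All DTPA values lay above all control values, as for 24.7% of all tested genes. The log2 fold change under DTPA was 2.94 ± 0.0873 (SE, limma adjusted p = 2.46e-07), the 12th highest of all tested genes. Its size rests on the added constant, since the controls were near 1 TPM, and was 3.63 with a pseudocount of 0.1 and 1.74 with a pseudocount of 5. Across the 3 conditions its order was the reverse of that of Mtf1, lowest in the controls, intermediate under DTPA and highest at 0 h. The share of all genes with this order was not counted, 0 h is a single library, and a link to Mtf1 was not tested. In the comparison of control with 0 h, which shares the control libraries, 1 of the 7 targets was called higher (Selenow) and 2 lower (Slc39a10 and Slc30a2), with a median log2 fold change of 0.79. Over all genes of that comparison 15.1% were called higher and 24.3% lower, with a median of -0.22.

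Among the other targets, Gclc, which encodes the catalytic subunit of the enzyme that begins glutathione synthesis, fell from 160 ± 11.1 to 73.5 ± 4.15 TPM, and Selenow, a small selenoprotein gene, from 4086 ± 273 to 2481 ± 101 TPM (SD, n = 3 each), log2 fold changes of -1.11 and -0.72. The zinc exporter gene Slc30a2 fell by 0.67 on the log2 scale (limma adjusted p = 0.0214), from 1.15 ± 0.0451 to 0.367 ± 0.234 TPM. At these levels a pseudocount of 0.1 gave -1.55 and one of 5 gave -0.20. With DTPA replicate 1 or 2 left out, or with a replicate block, the adjusted p was 0.0558, 0.0773 or 0.0512, and the call was lost. Slc30a10, a manganese exporter gene, and Slc40a1, the iron exporter gene ferroportin, were the other 2 that rose. Ndrg1, Csrp1, Hamp and Pgf were too low to be tested.

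**Figure D5:**
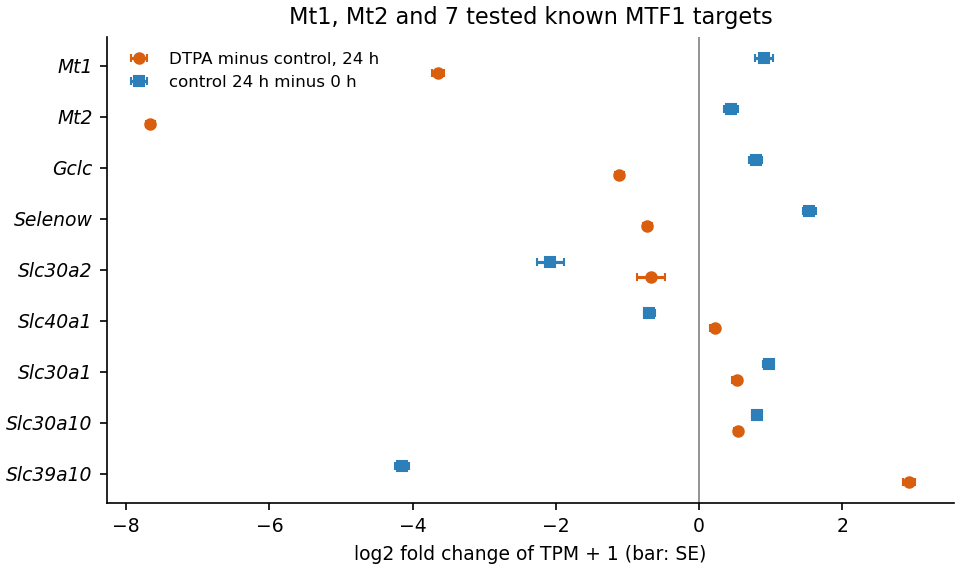
Log2 fold change of log2(TPM + 1) (x axis, bars SE) for Mt1, Mt2 and the 7 tested genes of the MTF1 target list, for DTPA minus control at 24 h and for control at 24 h minus 0 h. Mt2, Mt1, Gclc, Selenow and Slc30a2 lie left of 0 in the first comparison, Slc40a1, Slc30a1, Slc30a10 and Slc39a10 right of it; the 2 comparisons share the control libraries.

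Genes with as many MRE cores in a promoter also went both ways. Of 359 symbols with at least 3 MRE cores in a promoter window, Mt1 and Mt2 among them, 172 were tested, and 36 (20.9%) were higher and 83 (48.3%) lower under DTPA, against 21.7% and 36.4% of all tested genes. Their median log2 fold change was -0.15 against -0.09. After Mt2 and Mt1 the largest changes on this list were those of Slc22a4, an organic cation transporter gene, and Slc25a39, the mitochondrial glutathione carrier gene. Slc22a4 fell from 2.77 ± 0.306 to 0.0933 ± 0.162 TPM and Slc25a39 from 412 ± 10.4 to 158 ± 12.5 TPM (SD, n = 3 each), log2 fold changes of -1.79 and -1.38. That of Slc22a4 was -4.20 with a pseudocount of 0.1 and -0.61 with a pseudocount of 5.

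Partners of MTF1 and other regulators of metallothionein genes were called in either direction. Of 10 tested, 1 was higher and 4 lower under DTPA, 10% and 40% against 21.7% and 36.4% of all tested genes. Their median log2 fold change was -0.12 against -0.09, and the number higher was 2 under median-of-ratios scaling and 3 under quantile normalization. Stat3, a cytokine-activated factor that induces metallothionein genes, rose from 57.7 ± 1.39 to 114 ± 7.3 TPM (0.96 on the log2 scale). Ep300, the acetyltransferase that MTF1 recruits, fell from 54.7 ± 1.71 to 38.8 ± 3.1 TPM (-0.49), and Smarca4, a chromatin remodeller gene, from 73.7 ± 2.32 to 50.4 ± 3.42 TPM (-0.54; SD, n = 3 each). Nr3c1, the glucocorticoid receptor gene, was at 46.5 TPM at 0 h and fell further from 21.8 ± 0.301 to 17.6 ± 0.704 TPM (-0.30). The fourth to fall was Hif1a, a hypoxia-response regulator gene (-0.19, limma adjusted p = 0.0422).

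Genes that glucocorticoids induce, as they do Mt1 and Mt2, went both ways under DTPA. Of 6 tested, 3 were higher and 1 lower, where 21.7% and 36.4% of all tested genes were, with a median of 0.22 against -0.09. Zbtb16, a zinc finger repressor gene, rose from 3.78 ± 0.175 to 14.9 ± 0.85 TPM, and the kinase gene Sgk1 from 4.42 ± 0.549 to 7.88 ± 0.596 TPM, while Klf9 fell from 9.75 ± 0.4 to 4.87 ± 0.722 TPM (SD, n = 3 each). The clock gene Per1 rose by 0.31 on the log2 scale (limma adjusted p = 0.0321), a call lost without control replicate 2 or 3, without DTPA replicate 2 or 3, without a filter on low values and with a replicate block, with adjusted p from 0.0514 to 0.102. The count of those lower was 2 without a filter on low values.

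Genes of copper transport, the other metal that metallothioneins carry, were also counted. Of 8 tested, 1 was higher and 2 lower under DTPA, 12.5% and 25% against 21.7% and 36.4% of all tested genes, with a median of -0.12 against -0.09. The number higher was 2 under either other scaling or without control replicate 1, and 0 without DTPA replicate 3. Atp7b, a copper-exporting pump gene, fell from 26.5 ± 1.12 to 17.2 ± 1.55 TPM, and the importer gene Slc31a1 from 360 ± 11.3 to 304.3 ± 4.88 TPM (SD, n = 3 each), log2 fold changes of -0.60 and -0.24. Atp7a, the other copper pump gene, rose by 0.27 (limma adjusted p = 0.016), a call lost without DTPA replicate 3 (adjusted p = 0.051).

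Genes with the most similar course were sought by Pearson correlation of log2(TPM + 1) over the 7 libraries, among 8871 other genes that averaged at least 5 TPM. These r values are a description, since the 7 points fall into 3 groups and the measure ignores the size of a change. The genes most like Mt1 were Fen1, a flap endonuclease gene of replication (r = 0.999), Ccnf, the cyclin F gene (0.998), Hadha, Cep128 and Tshz1 (0.998, 0.997 and 0.997). Fen1 stood at 232 TPM at 0 h, 311 ± 12 TPM in the controls and 95.2 ± 3.2 TPM under DTPA (SD, n = 3 each), the same order of conditions as Mt1 with a far smaller span.

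Most like Mt2 were Fancm, a DNA repair helicase gene (r = 0.999), Ggact, the thioredoxin reductase gene Txnrd1, Timm22 and the mitotic kinesin gene Kif18b (0.998 to 0.999). Kif18b averaged 88.7 ± 4.91 TPM in the control libraries and 12.5 ± 0.788 TPM in the DTPA libraries (SD, n = 3 each). Between the members, Mt1 and Mt2 correlated at r = 0.990, which placed Mt2 at rank 48 for Mt1 and Mt1 at rank 87 for Mt2. Mtf1 correlated with Mt1 at r = 0.457 and with Mt2 at r = 0.332.

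Most like Mtf1 were Snx8, a sorting nexin gene (r = 0.994), Cdkn2c, the CDK inhibitor gene p18 (0.994), Man1b1, Prkag1 and Kctd6 (0.992 each). Cdkn2c stood at 64.9 TPM at 0 h, 301 ± 14.9 TPM in the controls and 153 ± 6.51 TPM under DTPA (SD, n = 3 each), like Mtf1 highest in the controls and intermediate under DTPA.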

How the data were processed

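Polyadenylated RNA of G1E-ER4 cells was sequenced in 7 libraries, with a stranded mRNA kit per the labels' protocols. Per the submitters' processing notes, the authors used Trimmomatic 0.33, FastQC, HISAT2 2.1.0, featureCounts and edgeR with build mm10 (annotation, strand setting and handling of multi-mapped reads: not given in the sources used here). Values in the deposited tables are TPM. Rows of repeated symbols (114 symbols) were summed.

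The reads behind a TPM were recovered with GENCODE M21 exon lengths from the step of the low values; 98.8% to 99.3% of low values under 10 reads lay within 0.1 of a whole read. Tests across genes used limma 3.58.1 (R 4.3.3), applied to log2(TPM + 1), eBayes with trend, two-sided, Benjamini-Hochberg adjustment over all tested genes, threshold 0.05. DTPA was set against control in the 6 libraries of 24 h (at least 1 TPM in at least 3 libraries), and 0 h comparisons came from 1 fit of all 7 (mean of at least 1 TPM in either group). The fits were also run on simulated data, and the outcome is not reported here. Members and lists were chosen with earlier results of these data known. Named are the members, up to 4 called genes per list with the largest change, Mt3, Mt4, Slc30a1, Slc39a10, the neighbours of Mt1, genes with exons overlapping Mtf1 and the 5 genes most like each member; Gm45774, Hemgn, Hif1a, Slc30a10, Slc40a1, untested targets and individual markers were named after their values were seen. Of the tested neighbours of Mt1, 1 is not reported here. Alternatives were other pseudocounts (0.1 and 5), filters (none and 5 TPM), scalings (median of ratios, quantile, without globin genes), no trend, all 7 libraries in the 24 h fit, no minimum fold, each 24 h library left out and a replicate block; gene lengths for the ratio were added after seeing the data.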

Additional observations from a re-analysis of the deposited data

How the results depend on the processing

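The direction of Mt1, Mt2 and Mtf1 in the 3 comparisons was kept in all 138 values under the alternatives run, and 130 of them also kept the call. For DTPA against control the log2 fold change ranged from -7.76 to -7.29 for Mt2, from -3.74 to -3.55 for Mt1 and from -0.55 to -0.37 for Mtf1 (limma adjusted p at most 0.00275). With no minimum fold, 8863 genes were called for control against 0 h in place of 4688, and 9192 for DTPA against 0 h in place of 5206, which follows from the rule. Scaling moved the balance of calls: of genes called for DTPA against control, 2415 were higher and 4059 lower on the deposited scale, 3047 and 3315 under median-of-ratios scaling and 3201 and 3106 under quantile normalization. The log2 shift of the Mt1 to Mt2 ratio was 4.07 to 4.15 with each library left out and 4.02 with 1 TPM added. The ratios on 3-exon lengths were 1.28, 1.76 and 30.6 at 0 h, in control and under DTPA, and in reads 1.37, 1.89 and 32.9. The pseudogene Rpl10-ps5 had values from -0.047 (without control replicate 2) to 0.55 (without control replicate 3), and -0.0032 without control replicate 1; the cause was not tested. The labels do not say whether the replicate numbers pair the samples. Same-numbered control and DTPA libraries correlated at -0.0103, 0.0242 and -0.0096 in their deviations, which cannot settle it. A replicate block gave 6162 called genes in place of 6474, and the ratio shift of 4.12 then had an exact sign-flip permutation p of 0.25, the smallest that 3 pairs allow; no member lost its call. The 49 to 55 reads of Mt2 under DTPA limit the precision of its ratio.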
